A study of Mus musculus with 16 samples.

Results

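The synaptonemal complex and the meiotic chromosome axis were followed through 7 genes, Sycp1, Sycp2, Sycp3, Syce1, Syce2, Hormad1 and Hormad2, in mouse embryonic stem (ES) cells with and without Rybp. The genes were taken by name, and every probe set of the array that carries only their symbol was used. Probe sets with several symbols were not searched for them. Each of the 7 had 1 such single-symbol probe set, out of 18193 genes that could be named on the array.

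In meiosis, the paired homologous chromosomes are held together by the synaptonemal complex, a zipper of protein. Each chromosome is first laid along an axis of cohesin, SYCP2 and SYCP3, which HORMAD1 and HORMAD2 coat wherever the homologues are not yet joined; SYCP1 filaments then bridge the axes, and SYCE1 and SYCE2 sit in the middle of the bridge. Outside germ cells many of these genes are held silent, in ES cells in part by a variant Polycomb complex that contains PCGF6, E2F6, MGA, MAX and RYBP.

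The cells were ES cells of hybrid 129/B6 origin, from 2 clones numbered 10 and 15, grown in serum with ESGRO on irradiated fibroblast feeders or gelatin. Cultures called Rybp-KO had received 4-hydroxytamoxifen (OHT), the drug that switches on the deletion, at 800 nM for 24 h, and cultures called wild-type control had received none. RNA was taken at day 4 and day 12, giving 4 groups of 4 arrays (2 per clone). No control culture received OHT, so the drug and the loss of Rybp cannot be told apart, and the labels neither name the recombinase nor say which arrays came from cells on feeders or whether replicates were separate cultures. The p-values therefore speak only of how far arrays varied around their group and clone, pooled over the 4 groups. That variation may be technical.

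The targeted gene was read by 2 probe sets. One fell on every KO array, from 2047 to 3319 intensity units in controls to 84.9 to 124.9 at day 4, and from 2749 to 3434 to between 108.5 and 255.7 at day 12. The other read higher in treated cells, at 4374 to 7612 against 255.0 to 2771 in controls at day 4. At day 12 it read 2815 to 5148 against 157 to 2108. The log2 differences were 2.82 ± 0.74 and 2.95 ± 0.74 (adjusted p = 0.154 and 0.0518, limma). Its controls differed by clone, at 157 to 297 in clone 15 and 1404 to 2771 in clone 10. Where either probe set lies relative to the deleted part is not given. Normalization had given each of the 16 arrays an identical distribution, with a median of 93.3 and a 25th percentile of 28.3. All 8 ES cell markers had means above that median in each group, and among them only Utf1 passed the test between treated and control cells at either day, by -0.82 ± 0.18 (SE, log2) at day 12 (limma adjusted p = 0.0256). Of 10 feeder fibroblast markers 0 passed at either day (limma). At an unadjusted p under 0.05, 0 passed at day 4 and 2 at day 12, as did 1554 and 2699 of all 18195 entries. The summed intensity of these markers overlapped between treated and control cells (867.2 to 1297 in control and 710.5 to 1505 in KO cells at day 4, 1242 to 1409 and 1127 to 1767 at day 12).

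The promoters of these genes are shown because they differ in 2 short motifs, the E2F site and the E-box, which the E2F6 and the MGA and MAX subunits of the repressor are known to bind. The windows are the 250 bases before each start in RefSeq on GRCm38.p6, 5′ to 3′ in the direction of the gene, with motifs in capitals: TCCCGC (on the other strand GCGGGA) for E2F and the palindrome CACGTG for the E-box, searched on both strands. The motifs can share their end base, and in the windows shown they do not. Sycp3 lies on the plus strand (chr10:88459337-88459586), as do Hormad1 (chr3:95559427-95559676) and Syce2 (the second of 2 starts, chr8:84872008-84872257), while Sycp1 (chr3:102936101-102936350) and Syce1 (chr7:140787855-140788104) lie on the minus strand.
Sycp3: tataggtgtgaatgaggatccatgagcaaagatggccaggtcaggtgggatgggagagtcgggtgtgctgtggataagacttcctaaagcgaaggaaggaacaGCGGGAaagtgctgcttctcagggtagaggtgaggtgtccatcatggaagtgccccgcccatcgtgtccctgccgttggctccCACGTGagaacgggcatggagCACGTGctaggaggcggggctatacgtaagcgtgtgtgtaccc
Hormad1: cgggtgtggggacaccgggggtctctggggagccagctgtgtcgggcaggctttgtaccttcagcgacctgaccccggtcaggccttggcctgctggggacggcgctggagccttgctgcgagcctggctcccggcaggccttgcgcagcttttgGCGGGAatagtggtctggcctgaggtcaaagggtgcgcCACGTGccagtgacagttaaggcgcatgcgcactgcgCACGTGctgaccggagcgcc
Syce2: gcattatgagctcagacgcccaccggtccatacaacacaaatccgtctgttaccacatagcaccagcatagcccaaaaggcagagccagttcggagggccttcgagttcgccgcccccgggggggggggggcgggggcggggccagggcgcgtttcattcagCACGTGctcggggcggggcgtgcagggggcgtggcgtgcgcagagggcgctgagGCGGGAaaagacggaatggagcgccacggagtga
Sycp1: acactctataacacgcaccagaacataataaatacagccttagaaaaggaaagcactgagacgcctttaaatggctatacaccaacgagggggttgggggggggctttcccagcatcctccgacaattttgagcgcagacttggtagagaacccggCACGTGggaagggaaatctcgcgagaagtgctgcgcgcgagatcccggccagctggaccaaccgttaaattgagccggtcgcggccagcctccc
Syce1: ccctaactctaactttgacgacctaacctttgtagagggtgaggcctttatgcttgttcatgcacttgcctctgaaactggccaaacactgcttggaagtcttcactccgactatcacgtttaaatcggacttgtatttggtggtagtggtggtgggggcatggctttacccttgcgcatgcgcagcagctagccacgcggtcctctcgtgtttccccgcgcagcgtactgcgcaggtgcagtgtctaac
The first 3 of these windows hold both motifs. Sycp3 has 1 E2F site, 147 bases before the start, and 2 E-boxes at 64 and 43 bases. Hormad1 has its E2F site at 95 bases and E-boxes at 57 and 20. The window of Syce2 shown has an E2F site at 34 bases and an E-box at 88, and its other start has an E2F site at 115 bases and no E-box. In Sycp1 there is 1 E-box, 94 bases before the start, and 1 E2F motif that ends within the 50 bases after the start. A window reaching 50 bases past the start would thus hold both motifs in Sycp1. Syce1 has neither motif, nor do the windows of Sycp2 and Hormad2. Among 32851 promoter windows of the same length, 16.9% held the E2F motif, 6.02% the E-box and 1.45% both. Counted by gene over any of its windows, 18.8% of 27025 genes held the E2F motif, 6.86% the E-box and 1.69% both in the same window. These matches are a description of letters, since binding was not measured here, and their link to the KO difference was not tested.

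Treated cells gave higher signal for 4 of the 7 genes; in bulk RNA, more cells with a transcript and more transcript per cell cannot be told apart. Syce1, which encodes a central element protein, and Sycp1, which encodes the transverse filament, rose at both days, by 4.17- to 6.21-fold. Sycp2, an axis gene, and Hormad2, whose product marks unjoined axes, passed the test at day 12 and not at day 4. Sycp3, Syce2 and Hormad1 did not pass at either day. At day 4, 2 of the 7 were called higher and 0 lower, where 0.566% of all 18195 entries tested were called higher and 0.0605% lower (limma with Benjamini-Hochberg adjustment over all of them, adjusted p under 0.05). At day 12 the counts were 4 of 7 higher and 0 lower, against 2.19% and 0.901% of all entries. The median log2 difference of the 7 genes was 1.45 at day 4 and 1.89 at day 12, and over all entries it was 0.01 at each day.

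**Figure D1:**
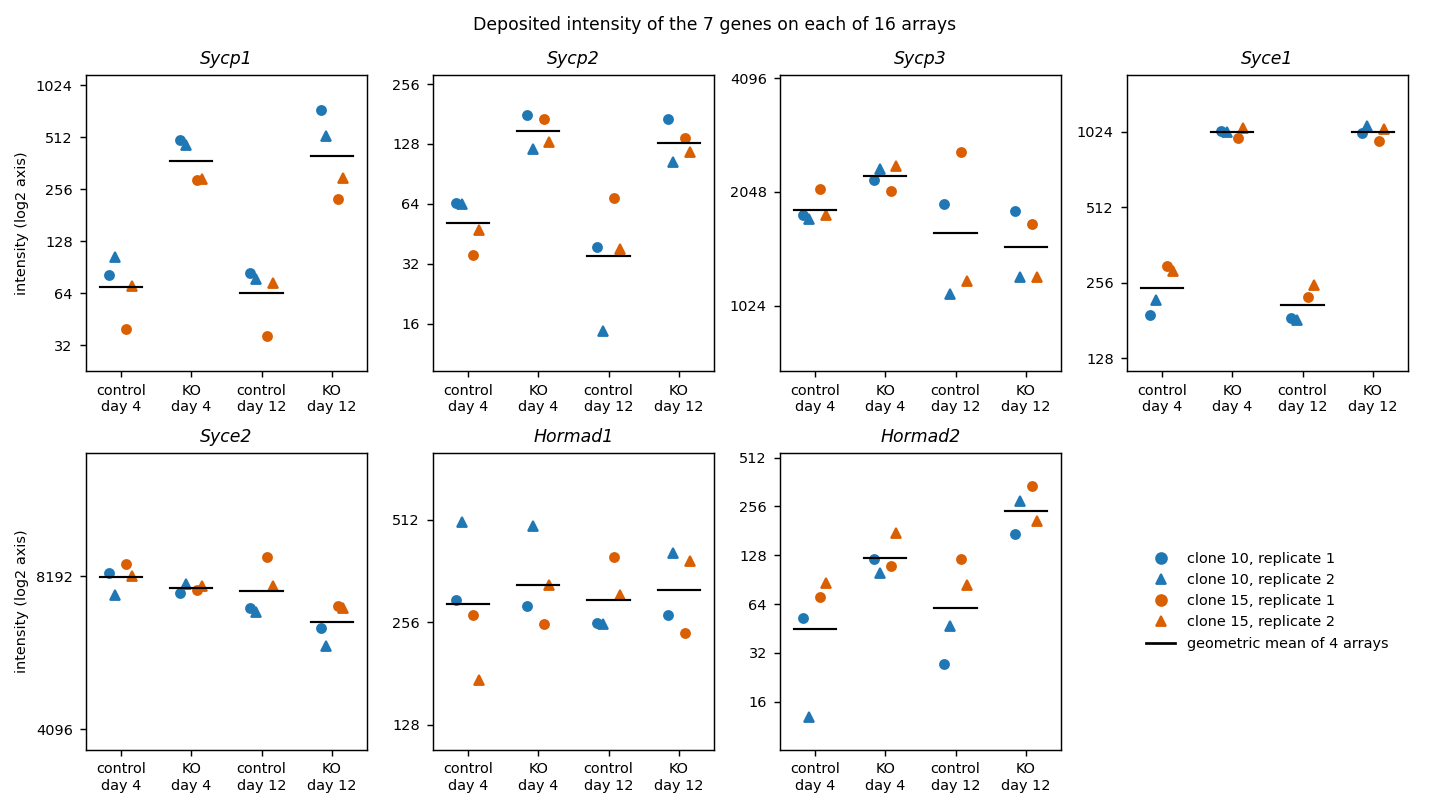
Normalized intensity of each gene's probe set on each of the 16 arrays (log2-spaced axis, 1 point per array, 4 arrays a group, clone by colour and replicate number by symbol). The KO arrays of Sycp1, Sycp2, Syce1 and Hormad2 lie above every control array of their day, and those of Sycp3, Syce2 and Hormad1 overlap with the controls.

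Syce1 differed most clearly by p among the 7 genes, at each day. Its control arrays read 191, 219, 299 and 285 intensity units at day 4 (clone 10, then clone 15, 2 arrays each, an order kept for every gene), and its KO arrays 1034, 1023, 965 and 1059.8. At day 12 the controls read 186, 181, 225 and 249.9, and the KO arrays 1011, 1082, 940.2 and 1050. Every KO array thus stood far above every control of its day, in both clones. The log2 difference was 2.06 ± 0.14 at day 4 (SE; 4.17-fold; adjusted p = 1.7e-05, limma) and 2.29 ± 0.14 at day 12 (4.89-fold; adjusted p = 2.58e-06), which placed Syce1 at rank 2 and rank 3 of all entries by p.

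Sycp1 encodes the rod-like protein that spans the gap between the axes. Its control arrays read 82.1, 104.2, 39.9 and 70.9 at day 4 and 83.9, 77.3, 36.2 and 74.0 at day 12, at or below the table's median on all but 1 array. In KO cells it read 496, 464, 289 and 294 at day 4 and 741, 519.9, 226 and 297 at day 12. The groups did not overlap, and in KO cells both clone 10 arrays lay above both clone 15 arrays at each day. The log2 difference was 2.41 ± 0.25 at day 4 (5.33-fold, adjusted p = 0.000339, limma) and 2.64 ± 0.25 at day 12 (6.21-fold, adjusted p = 7.17e-05).

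Sycp2 encodes the large axis protein that binds SYCP3. Controls read 64.6, 63.8, 35.6 and 47.1 at day 4, against 179, 120.1, 171 and 130.4 in KO cells. At day 12 the controls read 38.9, 14.8, 68.4 and 37.9 and the KO arrays 172, 104, 136 and 117. The control arrays were all below the table's median and the KO arrays all above it, with no overlap at either day. The difference at day 4 was 1.53 ± 0.38 on the log2 scale with an adjusted p of 0.131 (limma), and at day 12 it was 1.89 ± 0.38 (3.71-fold, adjusted p = 0.0185). The day 12 call was lost without replicate 1 of the KO cells in clone 10 (adjusted p = 0.0653) or in clone 15 (0.0544). The day 4 difference passed without the lowest control of day 12, replicate 2 of clone 10 (adjusted p = 0.0235), and in 3 other settings.

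Hormad2 encodes a HORMA-domain protein of unjoined axes. At day 4 its controls read 52.5, 13.0, 70.4 and 86.2 and its KO arrays 121, 99.2, 109 and 177. At day 12 the controls read 27.5, 46.9, 122 and 83.6, and the KO arrays 173, 276, 342 and 207. Every KO array was above every control of its day, the gap at day 4 being narrow, from 86.2 to 99.2. The log2 difference was 1.45 ± 0.44 at day 4 (adjusted p = 0.242, limma) and 2.00 ± 0.44 at day 12 (4.01-fold, adjusted p = 0.0285). That call was lost in 6 of the 16 fits that left out 1 array, each an array of day 12: without control replicate 1 or 2 of clone 10 (adjusted p = 0.0862 and 0.0682), control replicate 2 of clone 15 (0.0773), KO replicate 1 or 2 of clone 10 (0.0774 and 0.0912), or KO replicate 1 of clone 15 (0.0816).

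For these 4 genes, the KO arrays lay above all control arrays of the day at both days, where 3.49% of all entries did so at day 4 and 7.41% at day 12. Set against the control of the same clone, day and number, each was therefore higher in 4 of 4 comparisons at each day. The lack of overlap fixes that count in advance, so it adds nothing further. The smallest such difference was 1.69 (log2) for Syce1, 2.01 for Sycp1, 0.91 for Sycp2 and 0.63 for Hormad2.

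**Figure D2:**
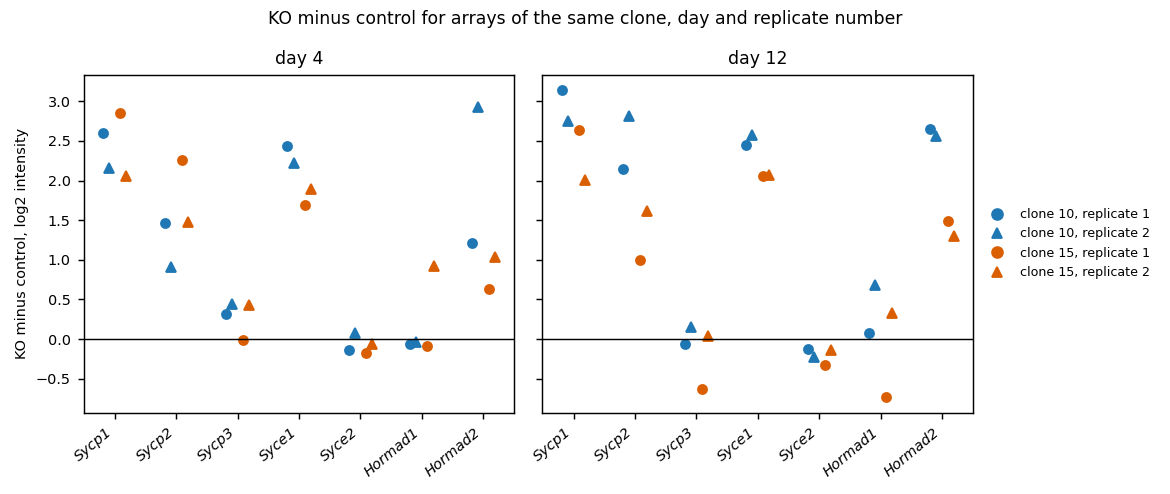
KO minus control (log2) of each gene for the arrays of the same clone, day and replicate number, 4 points per gene and day. All points of Sycp1, Sycp2, Syce1 and Hormad2 lie above 0, from 0.63 to 3.14, and the points of Sycp3, Syce2 and Hormad1 from -0.74 to 0.93.

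The other 3 genes had control means above the table's median, as Syce1 also did, and treatment did not move them past the test. Sycp3, the main axis protein, read 1778, 1734, 2083 and 1780.2 in day 4 controls and 2208, 2357, 2062 and 2398 in KO cells, higher in 3 of 4 comparisons of like clone and number, with overlap. At day 12 it read 1903, 1097, 2619 and 1187 in controls and 1828, 1222, 1689 and 1220.5 in KO cells. The log2 differences were 0.29 ± 0.25 (adjusted p = 0.885, limma) and -0.12 ± 0.25 (adjusted p = 0.884). At day 12 the 4 arrays numbered 1, control and KO, all read above the 4 numbered 2, by 0.75 ± 0.12 (log2, adjusted p = 0.0107), a split that 6.49% of all entries also showed past the threshold and no other of the 7 genes did. At day 4, 28.5% of all entries differed between the numbers, and 0 of the 7 genes.

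Syce2, whose product forms a complex with TEX12 in the central element, was bright in all groups, at 7533 to 8677 in controls and 7593 to 7922 in KO cells at day 4. At day 12 it ranged from 6983 to 8967 in controls and from 5978 to 7160 in KO cells, lower in 4 of 4 comparisons of like clone and number but with overlapping ranges. Its log2 difference was -0.07 ± 0.09 at day 4 and -0.21 ± 0.09 at day 12 (adjusted p = 0.963 and 0.337, limma). Hormad1, which recruits the checkpoint machinery to unjoined axes, spread widely in every group, from 173 to 502 in controls and 253 to 489 in KO cells at day 4 and from 254 to 397 and 239 to 408 at day 12. Its differences were 0.19 ± 0.31 and 0.09 ± 0.31 (adjusted p = 0.984 and 0.942, limma). The 95% intervals of these 3 genes reached at most 0.86 (Hormad1, day 4), below the lower bounds for Syce1 (1.77 and 2.00) and Sycp1 (1.88 and 2.10).

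**Figure D3:**
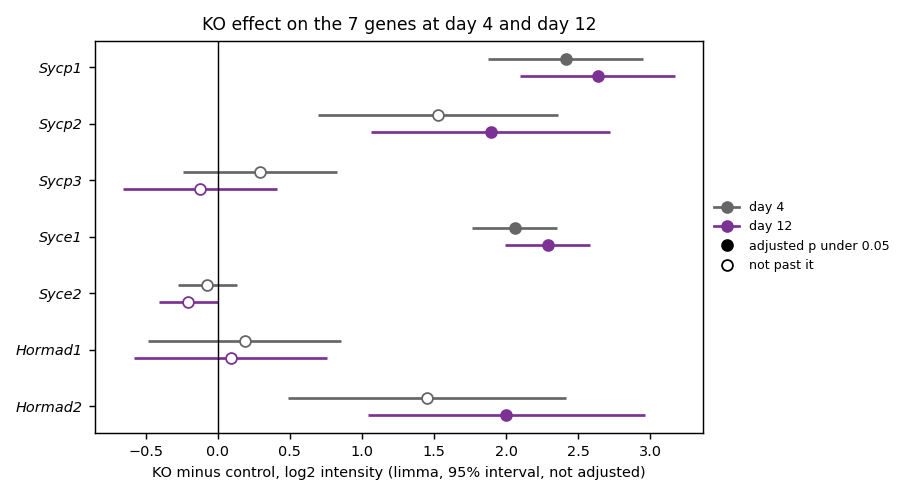
KO minus control (log2, limma estimate) of the 7 genes at day 4 and day 12 with 95% confidence intervals, 4 arrays a group, filled where adjusted p was under 0.05. Sycp1 and Syce1 are filled at both days, Sycp2 and Hormad2 at day 12 only, while Sycp3, Syce2 and Hormad1 lie between -0.21 and 0.29.

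The days were then compared within each treatment. Between day 4 and day 12, 0 of 7 passed in controls (0 at an unadjusted p under 0.05). Of all 18195 entries, 0.654% were called higher and 0.341% lower there, and 2525 had an unadjusted p under 0.05. In KO cells 0 of 7 passed (3 unadjusted), where 2.24% of all entries were higher and 1.03% lower, and 2867 had an unadjusted p under 0.05. In KO cells Hormad2 went from a mean of 127 ± 34.5 (SD, n = 4) to 249.6 ± 75.3, a log2 difference of 0.97 ± 0.44 (adjusted p = 0.314, limma), and Sycp3 from 2256 ± 153 to 1489.9 ± 315 (-0.62 ± 0.25, adjusted p = 0.226). Syce1 had a mean of 1020.6 ± 40.2 at day 4 and 1020.9 ± 61.1 at day 12. Whether the KO difference itself changed between the days was tested directly, and no gene passed: limma called 0 of all entries, 832 having an unadjusted p under 0.05. The estimate was 0.37 ± 0.54 for Sycp2 and 0.55 ± 0.63 for Hormad2, so that a call at one day only does not show a difference between days.

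In both clones the KO arrays of Sycp1, Sycp2, Syce1 and Hormad2 read above the controls of their day. In controls over both days, Hormad2 read 12.99 to 52.5 in clone 10 and 70.4 to 122 in clone 15, a log2 difference of 1.53 ± 0.43 (adjusted p = 0.56, limma, 8 group means split by clone). Syce1 was higher in clone 15 by 0.44 ± 0.11 (adjusted p = 0.443) and Sycp1 differed by -0.72 ± 0.26 (adjusted p = 0.845). Of the 7 genes, 0 passed (3 at an unadjusted p under 0.05). Of all 18195 entries, 0.0385% were called higher and 0.0275% lower, and 948 had an unadjusted p under 0.05. The KO difference averaged over the days, clone 15 minus clone 10, was -0.49 ± 0.16 for Syce1, -1.22 ± 0.60 for Hormad2 and -0.27 ± 0.37 for Sycp1 (log2, adjusted p = 1 each). For this comparison limma called 0 of all entries, 585 having an unadjusted p under 0.05. With clone 10 alone the KO difference at day 4 was 2.38 for Sycp1 and 2.33 for Syce1 (adjusted p = 0.141 and 0.0548), and with clone 15 alone 2.45 and 1.79 (0.313 and 0.14), 2 arrays a group.

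Around these genes, 34 of 44 other genes of meiotic chromosomes were measured. At day 4, 2 were called higher and 0 lower, with a median log2 difference of 0.14 over the 34. At day 12, 5 were called higher and 1 lower, with a median of 0.21. Of all entries, 0.566% were called higher and 0.0605% lower at day 4, and 2.19% and 0.901% at day 12. The median over all entries was 0.01 at each day. Dazl, an RNA-binding protein of germ cells, went from 619 ± 149 to 2196 ± 494 at day 4 and from 356 ± 51.7 to 2658 ± 251 at day 12 (SD, n = 4; adjusted p = 0.000339 and 5.54e-06, limma). Tex11, a recombination protein encoded on the X chromosome, rose by 1.98 ± 0.19 and 2.44 ± 0.19 (log2; adjusted p = 0.000171 and 1.9e-05). Stra8, which switches on the meiotic programme, rose at day 12 from 138 ± 26.8 to 922 ± 226 (adjusted p = 2.65e-05) and stood at 0.93 ± 0.22 (log2) at day 4 (adjusted p = 0.116).

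Of the 3 central element partners measured, Tex12 rose at day 12, by 2.83 ± 0.56 (log2; adjusted p = 0.0164, limma), from a control mean of 40.01 ± 39.7 that includes arrays near the bottom of the scale. Its fold was 7.12 as deposited and 3.70 with values under the 25th percentile raised to it. Among 10 axis and checkpoint genes Mei1, needed for meiotic DNA breaks, rose by 0.80 ± 0.16 (adjusted p = 0.018) and Hsf2bp, which brings recombination proteins to breaks, fell by 0.56 ± 0.12 (adjusted p = 0.0273) at day 12. Of the 3 meiotic cohesin subunits, Rec8, Stag3 and Smc1b, 0 passed at either day (0 unadjusted), and their differences lay between -0.42 and 0.34. Of the 4 telomere attachment genes 0 passed at either day (0 unadjusted at day 4 and 1 at day 12). Over all 18195 entries, 1554 had an unadjusted p under 0.05 at day 4 and 2699 at day 12. Of 20 repressors of germline genes 0 passed at day 4 (2 unadjusted); at day 12 E2f6, named here after its value was seen, rose from 702 ± 84.4 to 1136 ± 136 (adjusted p = 0.0446) and 19 did not pass.

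**Figure D4:**
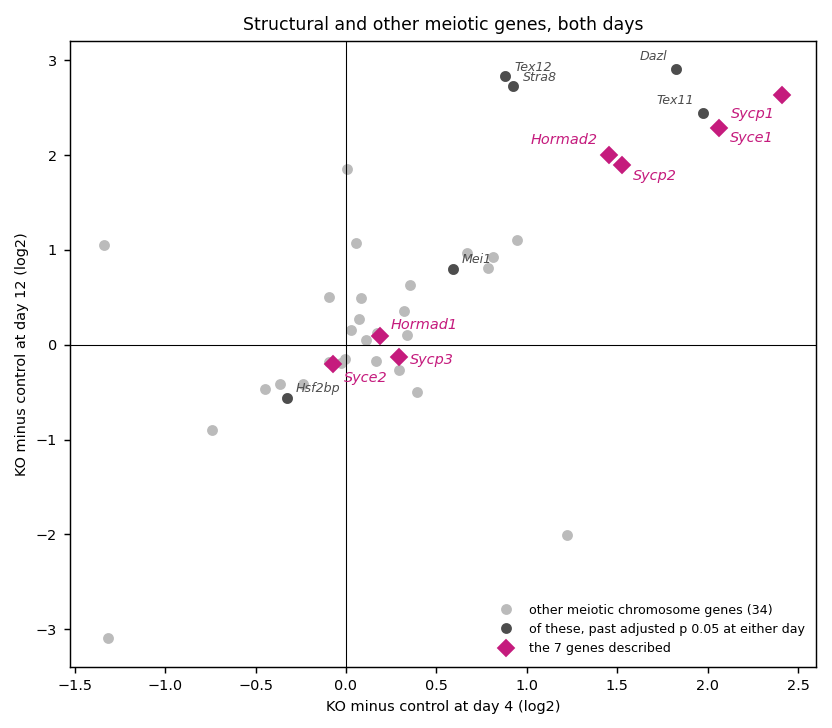
KO minus control (log2) at day 4 against day 12 for the 7 genes (diamonds) and the 34 other meiotic chromosome genes (grey, dark where adjusted p was under 0.05 at either day). Sycp1, Syce1, Sycp2 and Hormad2 lie at the upper right with Dazl and Tex11, and Sycp3, Syce2 and Hormad1 near 0 with most of the list.

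Most markers of meiotic germ cells did not pass the test. The summed intensity of 12 of them, which share 5 genes with the list above, was 1946 to 2299.6 in control and 2309.7 to 2771 in KO cells at day 4, and 1646 to 2438 and 2866 to 3208 at day 12. At day 4 Tex101 passed the test and at day 12 Stra8 and Tex101 did. The median log2 difference of the 12 was -0.07 at day 4 and -0.09 at day 12, with 5 of 12 above 0 at each day. Spata16 and Tnp1, genes of spermatids, had means under the 25th percentile of the table in all 4 groups. The array's control probe sets for the transferrin receptor gave a higher ratio of 3′ to 5′ signal in KO cells in 4 of 4 comparisons at day 4 (0.20 ± 0.14 log2, SD) and in 1 of 4 at day 12. The ratio for actin was higher in 3 of 4 at each day (0.028 ± 0.033 and 0.07 ± 0.1). For Gapdh it was higher in 2 of 4 at each day (0.015 ± 0.05 and -0.019 ± 0.051). The part of these ratios in the results was not tested.

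For the 6 genes whose mean lay above the table's median, the genes with the most similar pattern over the 16 arrays were found among 10842 candidates by Pearson's r of log2 intensity. The arrays share treatment, day and clone, so the values are a description. Sycp1 and Hormad2 were among the 6 only through their KO arrays. Their control geometric means at day 4 and day 12 were 70.2 and 64.5 (Sycp1) and 45.1 and 60.2 (Hormad2), below the median of 93.3. Their matches thus carry the KO difference that admitted them. Syce1 was most like Tex11 and Fabp5 (r = 0.987 each) and Mael (0.976), a piRNA pathway gene, and Sycp1 most like Rfxap (0.917), Fabp5 and Rhox13 (0.912 each). Hormad2 was most like Creg1 (0.916), Acaa2 (0.902) and A430005L14Rik (0.9). For Sycp3 the highest were Nt5dc1 (0.907), Slc39a6 (0.906) and Iftap (0.905), and for Syce2 Birc2 (0.909), Ccdc18 (0.903) and Ccdc58 (0.887), of which 0 passed the KO test at either day. Hormad1 had no close match, with Gab2 at 0.799 and Thap1 at 0.734. In the RefSeq annotation Sycp3 overlaps Chpt1 and Syce2 overlaps Gcdh; neither neighbour passed the KO test at either day.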

How the data were processed

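RNA of 16 samples was hybridised to Affymetrix mouse arrays, 1 per sample. The deposited table holds linear normalized intensity values for 45101 probe sets, made by the authors with Affymetrix Expression Console and RMA, per the submitters' processing notes (no version given); sorted values are identical in all columns. Of the probe sets, 34945 carry 1 gene symbol, 932 several and 9160 none; 34741 symbols were updated through Entrez numbers. Rybp's 2 probe sets, which carry several symbols, were tested as separate entries. Intensity was log2-transformed and each gene taken from its brightest probe set (18193 genes). limma 3.58.1 (R 4.3.3) was fitted over all 16 arrays with group and clone, and with 8 means for the clone comparisons, and p-values were adjusted by Benjamini-Hochberg over 18195 entries. Levels of different probe sets were not compared. The fit was tested on simulated data with noise drawn independently for each array. That test therefore did not cover the variation shared by same-numbered arrays. Precision is set by the 4 arrays in a group.

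The genes and lists were chosen with earlier results of these data known. Named genes were all 7 members, every list gene past the threshold, the 3 most similar genes per member, Rybp and marker genes. Alternatives covered replicate blocks, each array left out, low values, a pseudocount, probe set choice, the clone model, each clone alone and the spread prior. Of the 44 meiotic genes listed, 10 had no probe set named for them.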

Additional observations from a re-analysis of the deposited data

Results flagged for a closer look

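Among 28 groups of 4 arrays (7 genes in 4 groups), 1 held an array far from the others: Sycp3 in day 4 controls read 2083 in replicate 1 of clone 15, with the next array at 1780.2. The gap was 0.869 of the group's range, above Dixon's 95% critical value for 4 samples. Chance gives about 1 such group in 20.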

How the results depend on the processing

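The calls of Sycp1 and Syce1 held at both days in every alternative over both clones, including all 16 fits that left out 1 array; with 1 clone alone only the day 12 calls in clone 10 held. Sycp2 at day 4 passed with low values raised to the 25th percentile (adjusted p = 0.0202), with log2(value + 16) (0.0468) and with replicate number as a block within day (0.0479). Hormad2 at day 12 did not pass with 8 means (0.0523). The causes of these changes were not tested. No fold of the 7 genes moved by over 1.5 times with the raised values.

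Replicate numbers were not taken as pairs in the main fit. Over all genes, deviations of same-numbered arrays correlated at 0.172 and 0.174 (clone 10, clone 15) at day 4. At day 12 they correlated at 0.052 and 0.031. Over genes above the table's median the values were 0.721 and 0.67 at day 4, and 0.428 and 0.348 at day 12. Same-numbered arrays thus shared variation, which the main fit leaves in its spread. With the 8 pairs as a replicate block, the calls of the 7 genes did not change (2 and 4 higher; Sycp1 2.41 and 2.64, Syce1 2.06 and 2.29), while over all entries 178 were called at day 4 and 1479 at day 12, with 81 and 533 shared with the fit without the block; 44 were lower at day 4, and 852 higher and 627 lower at day 12. The block within day called 272 higher and 101 lower at day 4, and 1238 and 919 at day 12.

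Raising low values gave 176 higher and 40 lower at day 4, 624 and 285 at day 12, 285 and 205 between days in controls, 696 and 398 between days in KO cells, and 1 and 1 for the clone difference of the KO effect; Sycp2 between clones in controls turned to -0.015. With log2(value + 16), 4 entries were higher between clones in controls and 1 for the clone difference of the KO effect. Testing only genes above the table's median, 27 were lower at day 4 and 286 at day 12. With 8 means, 5 were lower at day 4, and 236 higher and 66 lower at day 12. Clone 10 alone gave 4 higher and 1 lower at day 4 (0 of the 7) and 34 and 3 at day 12 (2 of the 7), and clone 15 alone 0 and 0 at each day (0 of the 7). Hormad1 turned to -0.046 at day 4 in clone 10 and to -0.20 at day 12 in clone 15, and Sycp3 to 0.049 at day 12 in clone 10.

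Leaving out each array in turn gave 62 to 102 higher and 2 to 12 lower at day 4, and 203 to 380 and 84 to 160 at day 12, with 2 to 4 of the 7 genes higher. Between days it gave 66 to 118 higher and 19 to 52 lower in controls and 175 to 410 and 64 to 183 in KO cells, and between clones in controls 1 to 8 and 2 to 12, with 0 to 1 higher for the clone difference of the KO effect. Small differences that changed sign were, for KO minus control, Hormad1 at day 4 (-0.041 to 0.44) and day 12 (-0.055 to 0.28) and Sycp3 at day 12 (-0.31 to 0.12). Between days they were Hormad1 (-0.18 to 0.30), Hormad2 (-0.069 to 0.66) and Sycp1 (-0.35 to 0.040) in controls, and Hormad1 (-0.20 to 0.12), Syce1 (-0.068 to 0.078) and Sycp1 (-0.066 to 0.25) in KO cells. For the KO effect between days they were Hormad1 (-0.35 to 0.13) and Sycp2 (-0.070 to 0.70), and between clones Hormad1 (-0.25 to 0.14), Sycp2 (-0.60 to 0.10) and Sycp3 (-0.54 to 0.028). Between clones in controls they were Sycp2 (-0.13 to 0.57) and Sycp3 (-0.075 to 0.50).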
